A study of Mus musculus with 6 samples.

Results

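The 34 genes described here encode the p53 checkpoint and the main DNA repair pathways of the mouse. They were chosen by symbol and placed with RefSeq coordinates on GRCm38.p6 (mm10), and all 34 matched, out of 21631 protein-coding genes on chromosomes 1 to 19 and X. By role they were 3 genes for p53 and its inhibitors, 5 checkpoint kinases and mediators, 3 genes of the break-sensing complex, 5 of homologous recombination, 5 of end joining, 7 of the Fanconi anemia pathway and 6 of excision and mismatch repair. The assay was ATAC-seq, which maps open chromatin by letting the Tn5 transposase insert sequencing adapters into it. About 20000 hematopoietic stem cells per library were sorted from bone marrow (Lin-, Sca-1+, c-Kit+, CD48- and CD150+). The 3 libraries labelled Dek_fl came from C57BL/6 mice with loxP sites in both alleles of Dek, a chromatin-bound nuclear protein, and the 3 labelled Dek_cKO from mice with the same floxed alleles plus the Tie2-Cre transgene. The mice were 12 weeks old (3 months) and at steady state, and no other agent or allele is named for either group. Tie2-Cre is active in blood and endothelial cells, so the deletion is not limited to stem cells, and the Dek_fl mice carry the floxed alleles but no Cre. The labels give 3 libraries in each group although the design notes mention duplicates, and whether each is a separate animal is not stated, so p-values here reflect only how much these libraries vary, and that variation may be technical.

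When DNA breaks, the Mre11a, Rad50 and Nbn complex binds the ends and the kinases Atm and Atr phosphorylate Chek1, Chek2 and the transcription factor p53 (Trp53), whose level is held down by Mdm2 and Mdm4. Breaks are then rejoined by end joining, which needs no template, or by homologous recombination with Brca1, Brca2 and Palb2, while the Fanconi proteins unhook crosslinked strands and the excision and mismatch pathways replace damaged or wrongly paired bases. In hematopoietic stem cells these pathways are known for guarding a long-lived and mostly resting pool, and loss of Fanconi genes leads to bone marrow failure.

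The authors deposited 1 list of peaks per library, called separately. The Dek_fl lists held 52434, 71547 and 23809 peaks in replicates 1, 2 and 3 on these chromosomes and the Dek_cKO lists 70731, 73160 and 27167. Replicate 3 of both groups was called with a stricter threshold, and its lists were the shortest, so the replicate number also marks a processing batch that holds both groups. The depth in reads is unknown, so no interval can be given for a call, and a region without a peak is not shown to be closed. Of 10 stem cell marker genes, 9, 10 and 2 carried a gene-end peak in the Dek_fl libraries and 9, 9 and 5 in the Dek_cKO libraries. The matching counts were 1, 4 and 0 against 4, 4 and 1 of 5 B cell genes, 1, 2 and 0 against 2, 3 and 1 of 5 T cell genes, and 3, 4 and 0 against 4, 4 and 2 of 6 neutrophil and monocyte genes. They were 3, 3 and 2 against 3, 3 and 3 of 5 erythroid genes, and 4, 4 and 3 against 4, 4 and 2 of 5 endothelial genes. Their part in any result was not tested.

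Promoter letters of 7 members are shown first, since the peaks described below lie on or beside them. RefSeq gave promoter windows (GRCm38.p6, 250 bases before to 50 after a start) for 28 of the 34 genes, 30 windows in all. Entries for Rad50, Nbn, Xrcc2, Prkdc, Fancd2 and Xpc were not used here. For Trp53, Mre11a, Brca1 and Xrcc4, which share a short stretch with a gene running the other way, the whole stretch between both starts is printed, and for Mdm2, Fancl and Ercc2 the 250 bases before the start. Each runs 5′ to 3′ on the strand of the named gene up to the base before its start, and capitals mark matches, on either strand, to the letters of Sp1 (GGGCGG), then NF-Y (spelled CCAAT), then ETS factors (spelled CCGGAA), then NRF1 (spelled TGCGCA), then E2F (spelled TTCCCGC as well as TTGGCGC), then YY1 (spelled AGATGGC) and also CREB (spelled TGACGT).
Trp53: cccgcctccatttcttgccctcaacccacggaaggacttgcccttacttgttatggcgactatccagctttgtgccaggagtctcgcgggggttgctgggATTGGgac
Mdm2: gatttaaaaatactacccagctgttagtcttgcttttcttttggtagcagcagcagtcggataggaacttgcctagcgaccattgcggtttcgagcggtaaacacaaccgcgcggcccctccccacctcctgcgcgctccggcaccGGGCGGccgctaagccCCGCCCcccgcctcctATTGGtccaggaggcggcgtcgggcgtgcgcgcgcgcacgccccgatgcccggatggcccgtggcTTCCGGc
Mre11a: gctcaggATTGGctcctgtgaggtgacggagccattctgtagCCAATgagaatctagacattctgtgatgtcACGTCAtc
Brca1: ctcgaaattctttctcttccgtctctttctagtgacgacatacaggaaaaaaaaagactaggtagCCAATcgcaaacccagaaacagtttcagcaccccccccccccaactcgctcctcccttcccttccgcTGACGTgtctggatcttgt
Xrcc4: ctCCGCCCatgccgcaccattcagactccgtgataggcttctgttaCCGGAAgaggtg
Fancl: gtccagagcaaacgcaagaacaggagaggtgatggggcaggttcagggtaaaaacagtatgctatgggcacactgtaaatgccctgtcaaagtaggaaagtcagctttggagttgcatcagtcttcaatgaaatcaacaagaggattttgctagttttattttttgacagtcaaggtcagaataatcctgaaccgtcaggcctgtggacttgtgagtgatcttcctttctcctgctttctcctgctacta
Ercc2: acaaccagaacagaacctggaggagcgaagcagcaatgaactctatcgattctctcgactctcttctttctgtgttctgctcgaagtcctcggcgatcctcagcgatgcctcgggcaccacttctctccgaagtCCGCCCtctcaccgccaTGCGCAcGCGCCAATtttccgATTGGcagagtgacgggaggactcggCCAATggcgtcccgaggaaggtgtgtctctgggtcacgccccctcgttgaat
These lie on mm10 at chr11:69580251-69580358 (plus strand, Trp53), chr10:117710759-117711008 (minus strand, Mdm2), chr9:14784574-14784653 (plus strand, Mre11a), chr11:101551956-101552106 (minus strand, Brca1), chr13:90089609-90089666 (minus strand, Xrcc4), chr11:26386834-26387083 (plus strand, Fancl) and chr7:19381767-19382016 (plus strand, Ercc2). In Ercc2 a match to E2F letters overlaps a match to NF-Y letters. Fancl held no match to any motif searched.

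Every member had a called peak within 1 kb of its start in every library. A gene counted as called when a peak lay within 1 kb of either annotated gene end, or, for the start, within 1 kb of a start in the promoter table (of a gene end for the 6 genes without an entry). At gene ends 33, 33 and 29 of the 34 genes were called in the Dek_fl libraries (replicates 1, 2 and 3), and 33, 33 and 30 in Dek_cKO. This was 97.1%, 97.1% and 85.3% of members in Dek_fl and 97.1%, 97.1% and 88.2% in Dek_cKO, against 51.4% to 67.7% of protein-coding genes per library. The mean was 31.7 ± 2.31 genes in Dek_fl and 32.0 ± 1.73 in Dek_cKO (SD, n = 3), and the groups overlapped. In all 6 libraries 29 of 34 members were called at a gene end, against a background of 48.8% of protein-coding genes. At the start 34 of 34 were called in all 6, against 51.7% of the 17274 protein-coding genes with a listed start. Of the 28 members with a listed start, a peak covered the start base itself in 28 in each library of replicates 1 and 2, in 25 in Dek_fl replicate 3 and in 27 in Dek_cKO replicate 3. The exceptions were Trp53 in both, and Brca1 and Fancl in Dek_fl replicate 3.

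**Figure D1:**
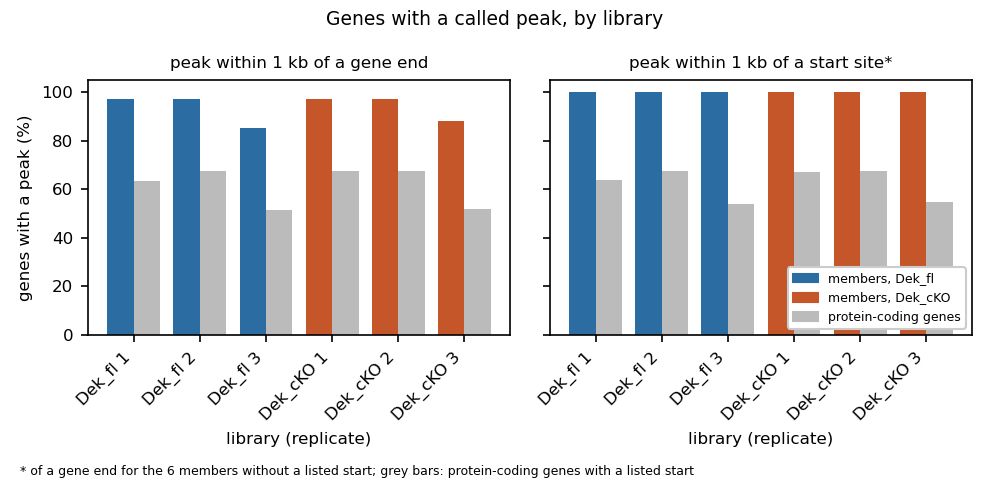
Percent of genes with a called peak in each library, within 1 kb of a gene end (left) or of a start site (right). Coloured bars are the 34 members (blue Dek_fl, orange Dek_cKO) and grey bars protein-coding genes; members stand between 85.3% and 100% in every library, and the grey bars between 51.4% and 67.7%.

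The 5 members not called at a gene end in every library were Mdm4, Trp53bp1, Xrcc6, Lig4 and Fancc, and each had a listed start inside its annotated span. Mdm4, an inhibitor of p53 activity, had no gene-end peak in any library. Its second listed start, at the outer end of the annotated span, had no peak, and its inner start at position 133025416 of chromosome 1 lay in a region, chr1:133024867-133026310, that was called in all 6. Trp53bp1, which binds marked chromatin at breaks, Xrcc6, the Ku70 end-binding subunit, and Fancc, a subunit of the Fanconi core complex, were called at a gene end in 2 Dek_fl and 2 Dek_cKO libraries. Lig4, the ligase of end joining, had a peak there in 2 of the Dek_fl and 3 of the Dek_cKO libraries. For all 5 the region at the listed start was called in 6 libraries, as the map of peaks along 4 of them shows.

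**Figure D2:**
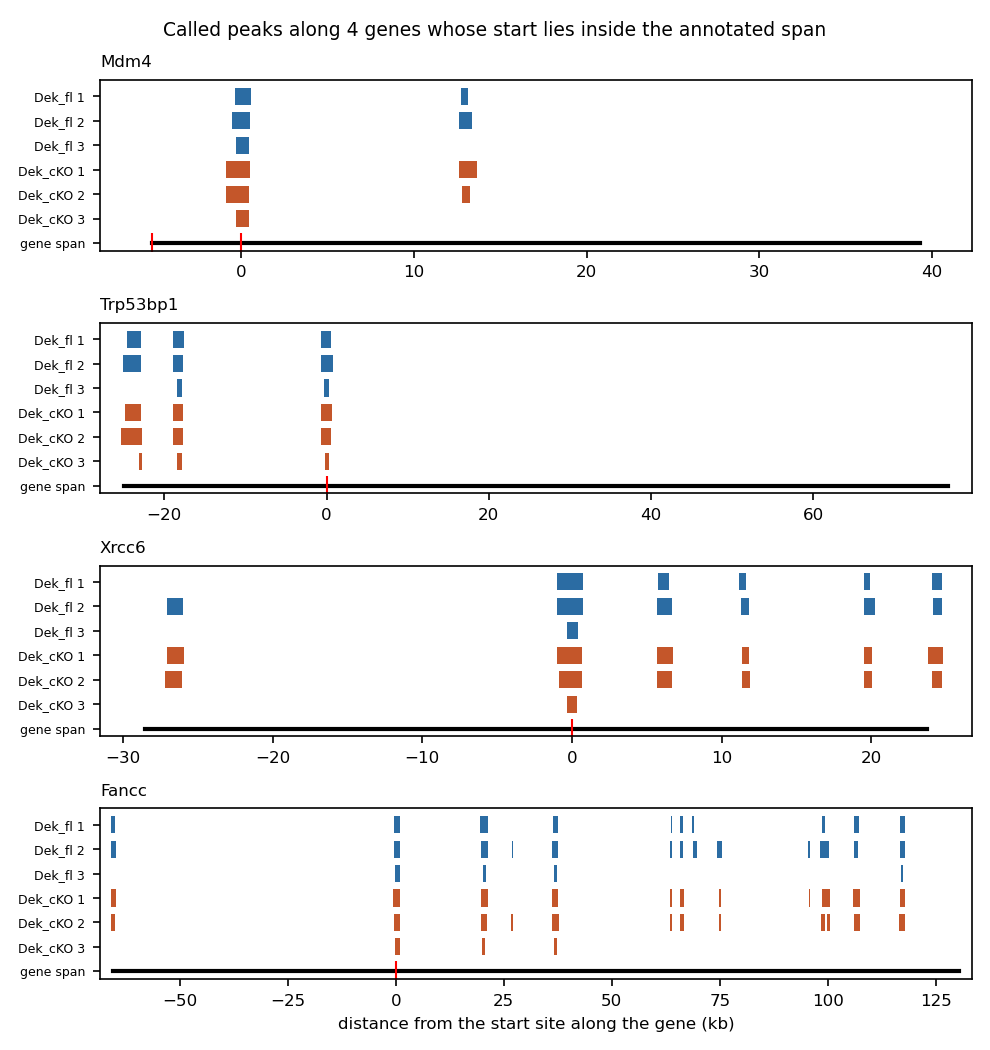
Called peaks (bars; blue Dek_fl, orange Dek_cKO) along Mdm4, Trp53bp1, Xrcc6 and Fancc, in kb from the listed start (at 0) in the direction of transcription. The black line is the annotated gene span and red ticks are listed starts; the peak at 0 is present in 6 libraries for each gene, and the outer ends are called in fewer.

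The strength of each start peak was read as its percentile within the library's own list, from 0 (weakest) to 100 (strongest), because the deposited fold over local background is set within each list. For each gene 1 region stood for the start, made by merging peaks that shared at least 1 bp: that called in most libraries, then nearest, then strongest. Across the 34 genes the median over genes of the mean percentile of fold was 86.4, against 78.1 for the protein-coding genes whose region was called in all 6 libraries. For −log10 p the medians were 88.5 and 84.7. The members' median percentile of fold was 92.0, 89.9 and 81.4 in the Dek_fl libraries (replicates 1, 2 and 3). It was 90.5, 92.5 and 78.2 in Dek_cKO. For those protein-coding genes the medians were 84.6, 81.1 and 69.7 in Dek_fl and 82.5, 84.3 and 70.6 in Dek_cKO. Lower percentiles in replicate 3 were thus common to both sets. A list called with a stricter threshold leaves out weaker peaks, which can lower the percentile of the regions it keeps. A lower percentile in replicate 3 is therefore not shown to be lower accessibility, here and below. The mean percentile of fold exceeded 50 in 33 of 34 members and 90 in 12. It exceeded 50 in every single library in 30. By role the median for fold ran from 63.4 for p53 and its inhibitors to 94.0 for the break-sensing complex, with 81.3 for homologous recombination, 81.5 for the Fanconi genes and 91.8 for end joining. For −log10 p it ran from 81.6 to 97.3 for the same roles, with 93.8 for homologous recombination. Members called strongest or lowest below are ordered by mean percentile of fold, and the order by −log10 p differs. All values by library are in the map of percentiles.

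**Figure D3:**
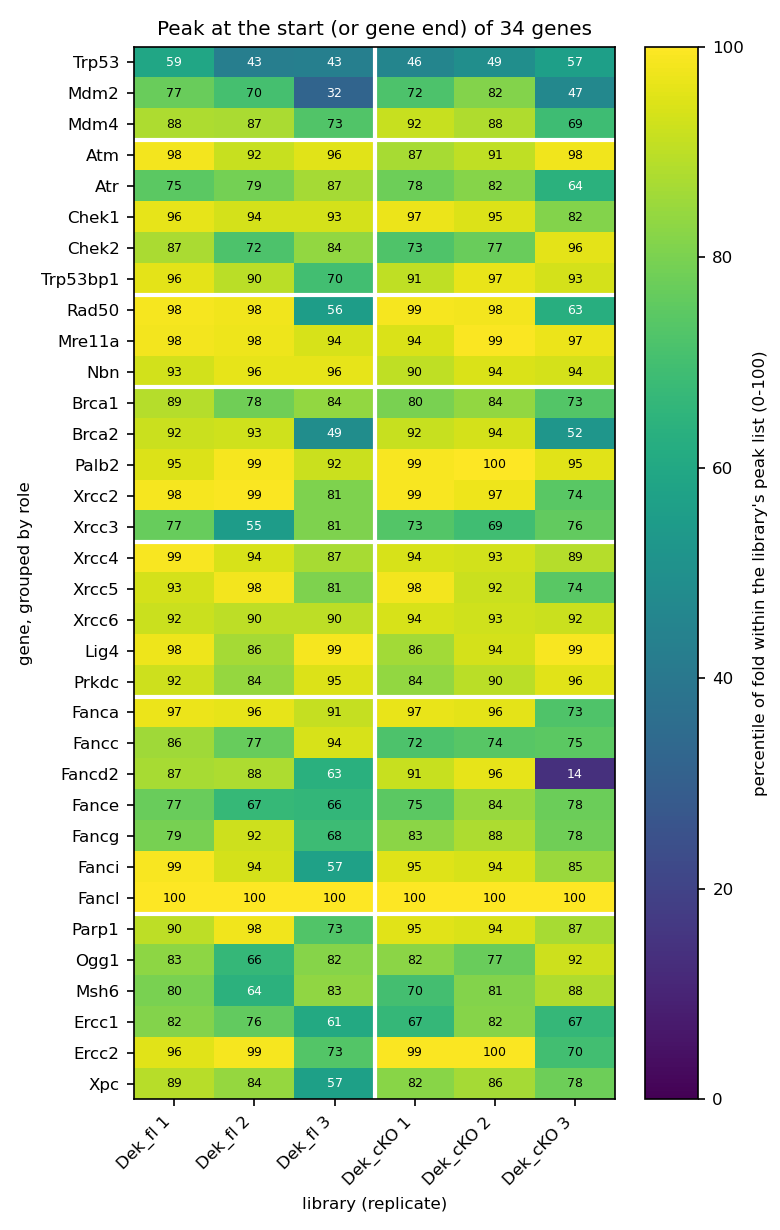
Percentile of fold within the library's peak list (colour and printed number, 0 to 100) at the start region, or gene-end region where no start is listed, of each of the 34 genes (rows, grouped by role) in each library (columns). Fancl stands above 99 in all 6 libraries, Trp53 stands between 42.8 and 59.1, and Fancd2 has its lowest value, 14.1, in Dek_cKO replicate 3.

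Trp53 (gene ID 22059), which encodes p53, had the lowest mean percentile of fold of the members. Its region, chr11:69578925-69581797, had fold values of 4.84, 4.16 and 7.34 in the Dek_fl libraries, given here and below in the order of replicates 1, 2 and 3, and 4.80, 5.26 and 8.88 in Dek_cKO. As percentiles these were 59.1, 42.8 and 43.0 in Dek_fl and 45.6, 49.4 and 56.6 in Dek_cKO. By percentile the groups overlapped, and no library stood apart. Rank scores (defined with the rank test) were higher in replicate 3, at −0.40 (Dek_fl) and −0.14 (Dek_cKO), against −1.23 to −0.66 in replicates 1 and 2. Peaks were also narrower in replicate 3, at 460 bp (Dek_fl) and 421 bp (Dek_cKO), against 1613 to 2818 bp in replicates 1 and 2. By −log10 p the region ranked higher, with a mean percentile of 81.6. The merged region is wide, at 2873 bp, and holds the start of Wrap53, which runs the other way from 109 bp off. In both replicate 3 libraries no peak covered the Trp53 start or the letters printed above, and the nearest peak edge lay 849 bp (Dek_fl) and 820 bp (Dek_cKO) away. In all 6 libraries the summit lay upstream of the Trp53 start, at −1057 to −869 bp, thus beyond the Wrap53 start.

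Mdm2, the ubiquitin ligase that targets p53, was the next lowest. At chr10:117709195-117711426 its percentiles of fold were 77.3, 70.4 and 32.2 in Dek_fl and 72.1, 81.6 and 46.7 in Dek_cKO. Both replicate 3 libraries were the low ones, and the groups overlapped. Mdm4 stood at 87.8, 87.2 and 72.7 in Dek_fl and 91.7, 88.0 and 68.8 in Dek_cKO, with replicate 3 again the lowest of each group. Rank differences between the groups at these 3 genes ran from −0.05 to 0.14 rank score units (defined with the rank test), and none passed the test.

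Among the checkpoint genes, Atm, the kinase activated by double-strand breaks, was strong throughout. At chr9:53535850-53537777, shared with Npat, its percentiles of fold were 98.3, 91.6 and 95.7 in Dek_fl and 86.8, 90.5 and 97.8 in Dek_cKO. Atr, the kinase activated by single-stranded DNA, stood at 74.8, 79.1 and 86.7 in Dek_fl and 78.0, 81.8 and 63.9 in Dek_cKO. Chek1, the kinase mainly downstream of Atr, stood at 96.5, 93.7 and 93.5 in Dek_fl and 97.1, 94.8 and 81.5 in Dek_cKO. For Atr and Chek1 the lowest value was Dek_cKO replicate 3, and for all 3 kinases the groups overlapped. Chek2, the kinase mainly downstream of Atm, stood at 87.2, 72.1 and 83.7 in Dek_fl and 72.6, 77.2 and 96.0 in Dek_cKO, here with Dek_cKO replicate 3 the highest. Trp53bp1 stood at 95.9, 89.7 and 69.9 in Dek_fl and 90.6, 96.7 and 93.4 in Dek_cKO. Its low value was Dek_fl replicate 3, and the groups overlapped.

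The break-sensing complex had 2 of the 4 strongest start peaks. Mre11a, its nuclease (gene ID 17535), stood at 98.2, 97.5 and 94.0 in Dek_fl and 94.3, 99.3 and 97.1 in Dek_cKO at chr9:14783761-14785493. Nbn, the subunit that recruits Atm, stood at 93.1, 96.4 and 96.5 in Dek_fl and 90.4, 94.3 and 93.5 in Dek_cKO. Rad50, the ATPase that tethers ends, went from 98.5 and 98.0 in Dek_fl replicates 1 and 2 to 55.8 in replicate 3, and from 98.6 and 98.3 to 62.7 in Dek_cKO. Rad50 was thus low in both replicate 3 libraries, while Mre11a and Nbn stayed above 90 in all 6. The groups overlapped for all 3 genes.

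In homologous recombination, Palb2, which joins Brca1 to Brca2, was the third strongest member. It stood at 94.9, 98.6 and 92.0 in Dek_fl and 99.0, 99.7 and 95.4 in Dek_cKO at chr7:122132329-122133729, higher in Dek_cKO in each same-numbered pair but with overlapping groups. Brca1, which promotes resection of the broken end, stood at 88.9, 78.3 and 83.8 in Dek_fl and 79.7, 83.7 and 73.3 in Dek_cKO. In all 6 libraries the Brca1 summit lay at −672 to −398 bp, beyond the start of Nbr1, which lies 152 bp off. Brca2, a mediator of recombination, stood at 92.2, 92.8 and 49.1 in Dek_fl and 91.6, 93.6 and 52.4 in Dek_cKO. The drop of Brca2 was in replicate 3 of both groups. Xrcc3, which acts in recombination, was the third lowest member, with 76.8, 55.2 and 80.7 in Dek_fl and 73.4, 69.3 and 75.9 in Dek_cKO. Its low value was Dek_fl replicate 2. The Xrcc3 summit lay beyond the start of Zfyve21, 291 bp off, in Dek_fl replicates 2 and 3 and Dek_cKO replicate 3. Xrcc2, which also acts in recombination, had a mean percentile of 91.5 and ranged from 74.3 to 99.3.

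All 5 end joining genes had mean percentiles between 89.5 and 93.7. Xrcc4, the partner of Lig4, stood at 99.0, 94.1 and 87.0 in Dek_fl and 93.9, 93.1 and 88.9 in Dek_cKO. Xrcc6 varied least of the 5, with 91.9, 90.2 and 90.1 in Dek_fl and 93.8, 92.9 and 92.1 in Dek_cKO, and its percentiles did not overlap between the groups but its rank scores did. Prkdc, the kinase recruited by Ku, stood at 92.4, 84.2 and 94.5 in Dek_fl and 83.6, 89.7 and 95.7 in Dek_cKO. Lig4 stood at 97.6, 86.4 and 98.8 in Dek_fl and 86.2, 93.7 and 99.1 in Dek_cKO. For Prkdc and Lig4 the replicate 3 libraries were the highest of their group, the opposite of Rad50 and Brca2. Xrcc5, the Ku80 subunit, ranged from 74.4 to 98.2.

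By percentile of fold the Fanconi genes held both the strongest member and the most variable. By mean percentile of −log10 p the highest member was Lig4 (98.8), with Fancl at 97.8. Fancl (gene ID 67030), the ubiquitin ligase of the pathway, had fold values of 11.2, 12.1 and 19.7 in Dek_fl and 13.1, 13.9 and 19.3 in Dek_cKO at chr11:26386755-26387761. Its percentiles were 99.8, 99.9 and 99.9 in Dek_fl and 99.9, 99.8 and 99.7 in Dek_cKO. Its summits lay 245 to 322 bp downstream of the listed start, and the stretch before the start, printed above, had a low CpG content. Fancd2, the protein that Fancl ubiquitinates, stood at 86.9, 87.9 and 63.3 in Dek_fl and 91.4, 96.4 and 14.1 in Dek_cKO, where replicate 3 lay far below the others. Its −log10 p in that library was 8.11, the lowest of any member in any library. Fanca, a core complex subunit, stood at 97.1, 96.3 and 91.4 in Dek_fl and 96.8, 95.9 and 72.6 in Dek_cKO, again lowest in Dek_cKO replicate 3.

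Fancc stood at 85.8, 76.7 and 94.1 in Dek_fl and 71.9, 74.0 and 74.9 in Dek_cKO, so that every Dek_cKO percentile was below every Dek_fl percentile, although the rank scores used in the test overlapped. Fancc and Xrcc6 were the 2 of 34 members whose percentiles did not overlap between the groups, against 3.1% of the regions called in all 6 libraries. Fance, which links the core complex to Fancd2, stood at 77.1, 66.9 and 66.2 in Dek_fl and 75.0, 84.5 and 77.7 in Dek_cKO, with overlapping groups. Fancg, also a core subunit, ranged from 68.4 to 92.3, and Fanci, the partner of Fancd2, from 57.3 to 99.2.

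In excision and mismatch repair, Ercc2, a helicase of transcription factor IIH, had 95.6, 98.6 and 73.1 in Dek_fl and 99.3, 99.5 and 69.8 in Dek_cKO. Parp1, which senses strand breaks, had 90.1, 97.9 and 73.0 in Dek_fl and 95.3, 94.5 and 87.1 in Dek_cKO. Both were lowest in the replicate 3 libraries, and the groups overlapped. Ogg1, the glycosylase for oxidised guanine, had 83.2, 66.5 and 81.9 in Dek_fl and 82.5, 77.1 and 92.2 in Dek_cKO. Xpc, which finds bulky lesions, had 89.2, 84.3 and 56.8 in Dek_fl and 82.4, 86.4 and 78.0 in Dek_cKO. Neither gene separated the groups. Msh6, a mismatch sensor, ranged from 64.4 to 88.2, and Ercc1, part of a repair nuclease, from 60.6 to 82.0.

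The groups were then compared by rank. For the 19683 regions called in all 6 libraries, each library's fold values were replaced by normal scores of their ranks (a unit is 1 SD of the ranked regions). The groups were then tested with limma at a threshold of 0.05 after Benjamini-Hochberg adjustment over all regions. No region was higher in Dek_cKO (0.0%) and none lower (0.0%). At an unadjusted p under 0.05 there were 68 higher and 19 lower. With the replicate number as a block, limma called 1 region higher, not a member, and 0 lower, with 585 higher and 289 lower at an unadjusted p under 0.05. With a term for the processing batch it called 0 in either direction, with 545 and 302 unadjusted. None of the 34 members was called in any of these fits, and the smallest adjusted p was 1.0 (limma). No member had an unadjusted p under 0.05 without the block or term, 2 had with the block (Fancc and Palb2), and 2 had with the batch term. The median difference, Dek_cKO minus Dek_fl, was −0.04 over the members, against −0.02 over all shared regions and −0.06 over regions of protein-coding genes. Of the members 21 of 34 (61.8%) lay below 0, as did 52.7% of all shared regions and 60.2% of regions of protein-coding genes.

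The members with the smallest p in each direction were the following. Palb2 had a mean score of 1.39 in Dek_fl and 1.96 in Dek_cKO, a difference of 0.57 (SE 0.34, unadjusted p = 0.13, adjusted p = 1.0 by limma), higher in 3 of 3 same-numbered pairs. With the replicate block its SE was 0.28 (unadjusted p = 0.044, adjusted p = 1.0 by limma), and without Dek_cKO replicate 2 the difference was 0.34. Trp53bp1 differed by 0.35 (SE 0.35), Ercc2 by 0.34 (SE 0.55) and Fance by 0.26 (SE 0.33), each higher in 2 of 3 pairs. The Trp53bp1 difference was 0.0067 in replicates 1 and 2 only and 0.96 in replicate 3 only, so it rested mostly on replicate 3. In the other direction Fancc had a mean score of 0.61 in Dek_fl and −0.03 in Dek_cKO, a difference of −0.64 (SE 0.43, unadjusted p = 0.17, adjusted p = 1.0 by limma), lower in 3 of 3 pairs. With the replicate block its SE was 0.28 (unadjusted p = 0.026, adjusted p = 1.0 by limma), and without Dek_fl replicate 3 the difference was −0.20. Fanca differed by −0.38 (SE 0.34) and Nbn by −0.33 (SE 0.34), both lower in 3 of 3 pairs, and Xrcc4 by −0.38 (SE 0.35), lower in 2 of 3. Besides these, Fancl was lower and Xrcc6 higher in 3 of 3 pairs, so 4 members were lower and 2 higher in every pair. The matching share of all shared regions was not counted, so no result is drawn from these pair counts. They also rest on replicate numbers, which do not clearly pair replicates 1 and 2. None of these members passed the test after adjustment, with or without the block. The median SE at the members was 0.36, or 0.28 with the block.

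Fancl alone of the 34 had rank scores that did not overlap between the groups, against 4.37% of all shared regions. Its scores were 2.82, 2.93 and 3.01 in Dek_fl and 2.77, 2.59 and 2.68 in Dek_cKO, a difference of −0.24 (SE 0.28). By role the median difference ran from −0.21 for checkpoint genes and −0.21 for Fanconi genes to 0.10 for excision and mismatch repair, where 5 of 6 were above 0, as were 39.8% of regions of protein-coding genes. In the Fanconi group 6 of 7 were below 0, against 60.2% of those regions.

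**Figure D4:**
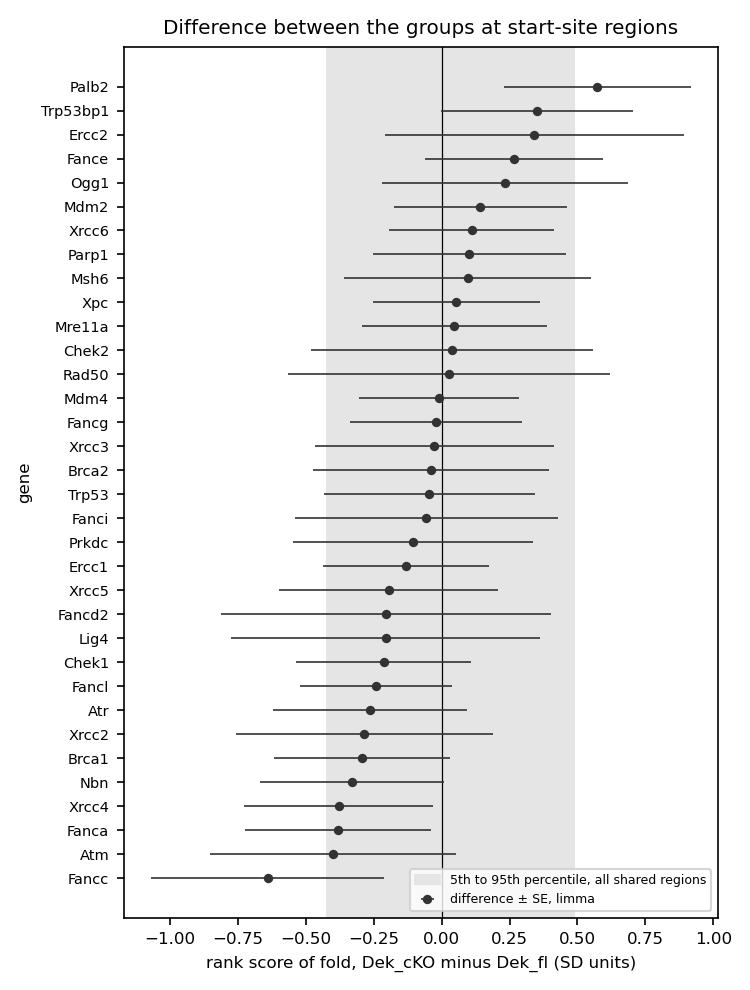
Difference in rank score, Dek_cKO minus Dek_fl, at the start region of each member (points, with the limma SE as bars). The grey band holds the middle of all shared regions, from −0.42 (percentile 5) to 0.49 (percentile 95); 32 of 34 points lie inside it, with Palb2 above and Fancc below.

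No region of a member was called in all libraries of a group and none of the other. Counting starts, ends and gene bodies the members had 90 regions, of which 0 were in all 3 Dek_cKO and no Dek_fl libraries (0.104% of all regions) and 0 in all 3 Dek_fl and no Dek_cKO libraries (0.00355%). Gene-body regions, inside the gene and over 1 kb from its ends and starts, numbered 47 in 22 members, and 12 members had none. The Dek_fl libraries had 29, 41 and 8 such peaks and the Dek_cKO libraries 38, 41 and 10, a mean of 26.0 ± 16.7 against 29.7 ± 17.1 (SD, n = 3). The low counts were those of replicate 3 in both groups, and the groups overlapped. Of the 47 regions 28 were called in all 4 libraries of replicates 1 and 2, and 20 of those in neither replicate 3 library. In all 6 libraries 6 were called (12.8%), against 14.3% of all gene-body regions. That background leaves out regions at an end of any annotated gene, while the 47 keep those beside other genes, so the shares follow unlike rules.

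These 6 regions were spread over 5 genes. In Xrcc4, chr13:89888761-89890005 lies 199603 bp from the start. Its percentiles of fold were 22.8, 69.1 and 98.5 in Dek_fl and 93.6, 72.4 and 98.7 in Dek_cKO, with Dek_fl replicate 1 far below the others. In Fancc, chr13:63394021-63395577 stood at 88.6, 93.2 and 85.2 in Dek_fl and 92.8, 96.7 and 89.6 in Dek_cKO. Also in Fancc, chr13:63410320-63412242 stood at 80.8, 80.9 and 32.5 in Dek_fl and 72.2, 80.1 and 29.0 in Dek_cKO. The former was as strong as many start peaks in every library, and the latter was weak in replicate 3. In Trp53bp1, chr2:121288981-121290362, which lies beside an end of Map1a, stood at 82.9, 90.8 and 42.2 in Dek_fl and 92.7, 93.7 and 72.1 in Dek_cKO. In Parp1, chr1:180587480-180588541, which lies beside an end of Mir6904, stood at 18.3, 65.3 and 40.9 in Dek_fl and 28.4, 61.4 and 85.3 in Dek_cKO. The groups overlapped in both. In Xpc, chr6:91505761-91506909 stood at 76.6, 76.8 and 52.4 in Dek_fl and 68.1, 81.7 and 61.5 in Dek_cKO. Exon and intron positions were not used here.

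A single gene-body region of the 47 differed by 2 or more called libraries between the groups (2.13%), against 5.08% of gene-body regions away from the ends of all genes. It lies in Fancc at chr13:63361997-63363142 and was called in Dek_fl replicates 1 and 2 only, with fold values of 3.00 and 2.31, at percentiles 14.9 and 3.86. Both are near the bottom of their lists. Away from the start, Atr had a strong region at the far end, chr9:95954154-95955536, which it shares with Xrn1, and Parp1 and Xpc had end regions called in all 6 libraries. The far end of Atm had a peak in 2 of the Dek_fl and 3 of the Dek_cKO libraries.

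The members shared features that their choice did not use. A protein-coding gene started within 1 kb in the opposite direction at 10 of 28 members with a listed start (35.7%), against 8.68% of 17274 genes. That background holds genes with and without a called start, while every member had one in every library. The share among genes with called starts was not counted. The 10 members included Trp53 with Wrap53 at 109 bp, Atm with Npat at 376 bp, Atr with 1700065D16Rik at 80 bp, Mre11a with Ankrd49 at 81 bp, Brca1 with Nbr1 at 152 bp and Palb2 with Dctn5 at 95 bp. The others were Xrcc3 with Zfyve21 at 291 bp, Xrcc4 with Tmem167 at 59 bp, Xrcc6 with Desi1 at 149 bp and Lig4 with Abhd13 at 37 bp. Lig4 has 2 listed starts, and only the outer lies 37 bp from that of Abhd13. Coverage by 1 peak was not separated between them, so Lig4 is left out here. At the other genes a single peak covered both starts in replicates 1 and 2 of both groups. In replicate 3 it did so too, except at Trp53 in both groups and Brca1 in Dek_fl. Where 1 peak covers both starts, the accessibility of the neighbours cannot be told apart.

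Letters of E2F, whose factors drive genes of the S phase, were in 36.7% of the 30 member windows, 8.78% of 21045 windows of protein-coding genes and 13.6% of the 10233 windows whose start lay in a region called in all 6 libraries. The 11 windows were those of Atm, Chek1, Chek2, Brca1, Brca2, Xrcc4, Xrcc6, Fancg, Fanci, Msh6 and Ercc2. In Brca1 and Xrcc4 the match lay in the window but outside the shorter stretch printed above. ETS letters were in 46.7%, 18.9% and 31.5% of the same windows, NRF1 letters in 23.3%, 9.74% and 15.7%, and NF-Y letters in 53.3%, 38.5% and 39.1%. Sp1 letters were in 60.0%, 46.7% and 68.6%, CREB letters in 13.3%, 8.58% and 13.1%, and YY1 letters in 0, 6.06% and 7.23%. For Sp1 the members thus stood below the windows with called starts, and for E2F above them. The decamer known as the p53 half-site was in 13.3%, 7.37% and 6.46%, and the member windows were those of Trp53, Mdm2, Fanca and Fancg. Pairs of it, adjoining or with a short spacer between, were in 0 of 30 windows, 0.0475% and 0.0195%. The median GC content was 59.8%, 56.7% and 62.0%, and the CpG ratio, observed over expected, 0.856, 0.574 and 0.794. Fancl, the strongest peak, had a GC content of 47.0% and a CpG ratio of 0.182. A match is a description of letters and does not show that a factor binds.

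**Figure D5:**
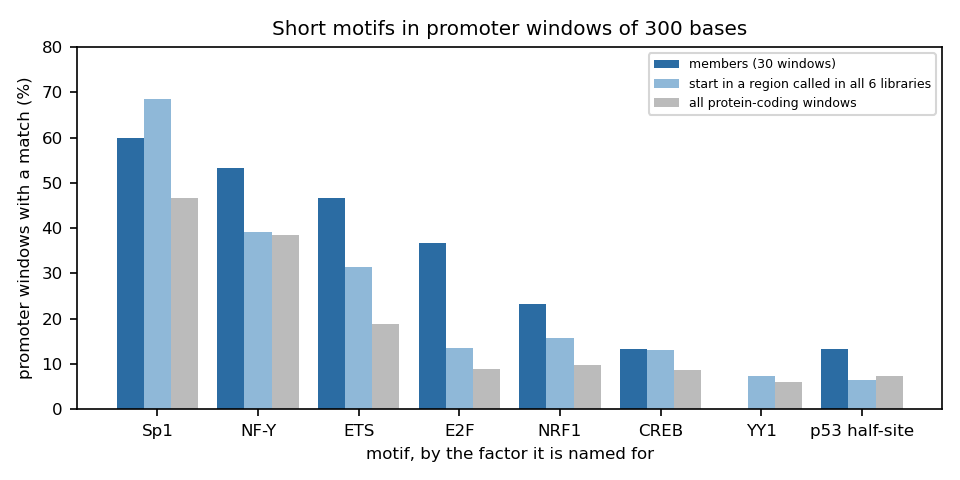
Percent of promoter windows of 300 bases that hold a match on either strand, by the factor each motif is named for. Dark bars are the 30 member windows, light blue bars windows whose start lay in a region called in all 6 libraries and grey bars all protein-coding windows; E2F letters stand at 36.7%, 13.6% and 8.78%.

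Other genes of the same pathways, 95 in 5 lists, were counted in the same way. At a gene end in all 6 libraries there were 21 of 25 p53 target genes, 17 of 17 other checkpoint genes, 17 of 18 other recombination and Fanconi genes, 6 of 7 other end joining genes and 26 of 28 other excision and mismatch repair genes. At the start, Cdkn1a, the cell cycle inhibitor induced by p53, and the death receptors Fas and Tnfrsf10b were the p53 targets not called in every library. In the repair lists Rbbp8 and Slx4 had no start peak in any library, and Fancm and Mlh3 were not called at the start in all 6. Of the 95 genes 89 had a region in the rank test, 0 were called in either direction and 0 had an unadjusted p under 0.05 (limma; 0 with the replicate block), and the median difference was −0.05. Per list the 2 smallest p above 0 belonged to Aen (0.14) and Plk3 (0.17) among p53 targets, Cdc25a (0.40) and Cdc25c (0.45) among checkpoint genes and Rad51d (0.21) and Exo1 (0.05) in recombination. They included Mgmt (0.44) in excision and mismatch repair, and Poll alone (0.10) in end joining. Below 0 they were Bax (−0.52) and Perp (−0.41), Rad17 (−0.38) and Cdc25b (−0.30), Rad52 (−0.38) and Fancf (−0.45), Nhej1 (−0.35) and Polm (−0.25), and Ercc4 (−0.29) and Ercc6 (−0.25). All values are differences in rank score, and none passed the test.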

How the data were processed

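ATAC-seq peak lists of 6 libraries (3 Dek_fl, 3 Dek_cKO; depth in reads unknown) were used. The reads were handled with Bowtie2, Picard and MACS2 on mm10 per the submitters' processing notes; versions, settings and any Tn5 shift were not given in the sources used here. The authors' deposited rows hold a score, a fold (ratio) of the summit over background, the −log10 p-value and q-value, and a summit. For 100% of peaks the authors' score was, within 1 unit, 10 times the −log10 q (replicates 1 and 2) or 10 times the −log10 p (replicate 3). Fold and score are the authors' values and were used only to rank or describe peaks.

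Peaks sharing at least 1 bp were merged into 84592 regions, taking the highest value per library. Rank scores were fitted with limma 3.58.1 (R 4.3.3), without the replicate number; the script was tested on simulated data. Deviations of same-numbered libraries from their group means correlated at 0.27, 0.52 and 0.74. With replicates 1 and 2 crossed, the values were 0.57 for Dek_cKO replicate 1 and 0.31 for Dek_cKO replicate 2. The numbers thus do not clearly pair replicates 1 and 2, and the labels state no pairing. Replicate 3, which is also the processing batch, matched its own number best. Pair counts and the replicate block follow the numbers all the same. Tables were handled in Python 3.11.15 with pandas 2.3.3. Genes came from RefSeq (GRCm38.p6), which gave 49554 genes here; H2afx was matched by a synonym. Alternatives changed the block or batch term, the measure ranked, list length, threshold, overlap, distance and libraries. Per-library values are given for 16 core members, those not called at every gene end, the 4 smallest p in each direction, the 3 highest and lowest mean percentiles, and gene-body regions called in all 6 libraries or 2 or more libraries apart. A gene that the rule names is not reported here. The 6 values of Rad50 were added after they were seen. The members and lists were chosen with earlier results of these data known.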

Additional observations from a re-analysis of the deposited data

How the results depend on the processing

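The depth in reads is unknown, so what the lists could have missed cannot be bounded. The rank test called 0 regions in each direction under every alternative run with a test, except that with the replicate block it called 1 higher; the replicate block changed no other call, and no member was called. The members' median difference stayed between −0.12 and 0.06, above 0 without Dek_cKO replicate 1 (0.04) and in replicate 3 only (0.06). In replicate 3 only (values with no test), members with a gene-end peak fell to 29 in Dek_fl and 30 in Dek_cKO, and gene-body peaks to 8 and 10. There were 4 member regions in Dek_cKO only and 1 in Dek_fl only. These counts compare 1 library per group, and the Dek_cKO list was the longer (27167 against 23809 peaks). The matching share of all regions was not counted, so no gain or loss is read from them. With lists of equal length the mean was 29.7 gene-end members in Dek_cKO, and gene-body peaks averaged 7.0 in Dek_fl and 6.67 in Dek_cKO. At starts 34 members were called in each group. Member regions in Dek_fl only numbered 1 in replicates 1 and 2 only, and 0 to 1 when 1 library was left out, the 1 being without Dek_fl replicate 3. For these settings too the share of all regions was not counted. Some rank differences changed sign. In replicate 3 only, Ercc2 gave −0.22, Xrcc4 0.017, Plk3 −0.40, Rad51d −0.62, Exo1 −0.19 and Poll −0.38. Bax gave 0.0088 in replicates 1 and 2 only, and Exo1 −0.011 by rank of −log10 p. Leaving out 1 library at a time gave −0.97 to 0.13 for Bax, −0.50 to 0.049 for Cdc25b, −0.0073 to 0.87 for Cdc25c, −0.075 to 0.24 for Exo1 and −0.21 to 0.35 for Poll. The following 8 members kept their sign when 1 library was left out, with values from 0.34 to 0.77 for Palb2, 0.16 to 0.60 for Trp53bp1, 0.0048 to 0.94 for Ercc2 (lowest without Dek_cKO replicate 2), 0.083 to 0.43 for Fance (Dek_cKO replicate 3), −0.97 to −0.20 for Fancc (nearest 0 without Dek_fl replicate 3), −0.58 to −0.087 for Fanca (Dek_cKO replicate 3), −0.54 to −0.059 for Xrcc4 (Dek_fl replicate 1) and −0.51 to −0.13 for Nbn (Dek_fl replicate 3). The cause of these moves was not tested.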
